A study of Mus musculus with 62 samples.

Results

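The cytosolic translation initiation and elongation factors were taken as every gene whose symbol begins with Eif1 to Eif6, Eef1 or Eef2. Of 72 such symbols, 3 Eif4ebp genes, which encode binding partners that inhibit eIF4E, and 7 rows named as pseudogenes were left out, so that 62 of the 47643 symbols in the table were kept. Of these 62 genes, 58 averaged at least 1 TPM over all libraries and were tested among 11107 genes that passed the same filter. TPM is the share of a library's transcripts assigned to a gene, corrected for transcript length, so levels of different genes can be set side by side.

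Initiation factors bring the initiator methionyl-tRNA and the small ribosomal subunit to the capped end of an mRNA, scan to a start codon and join the large subunit. Elongation factors then deliver each aminoacyl-tRNA (eEF1) and move the ribosome along by one codon (eEF2). Skeletal muscle is unusual in how it supplies the delivery factor: in rodents most tissues use Eef1a1, while muscle fibres change over to the closely related Eef1a2 after birth.

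The samples were tibialis anterior muscles, a mainly fast muscle of the hind limb, from female mice aged 2 months. CAC mice had been injected with melanoma cells that cause cachexia, the muscle and fat wasting that accompanies some cancers, NCAC mice with melanoma cells that do not, and Con mice had received a mock injection. Muscles were taken at 2, 4, 6 and 8 weeks, with 5 libraries in each of the 12 groups except CAC at 8 weeks, which had 7. The sample labels give the strain as C57BL6/J and the design text of the series gives athymic nude mice, a host without a normal T cell compartment, so the strain is not settled. The labels name no cell line for either tumour and give no tumour size or body weight, and nothing in them ties a library to an extraction or sequencing batch. Replicates are described as biological, without further detail of the animals.

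RNA was poly(A)-selected, so that the values describe mRNA levels and not factor protein or its phosphorylation. The 62 genes together held 0.704 to 1.07% of all TPM in CAC muscle at 6 weeks and 0.571 to 1.04% at 8 weeks, against 0.471 to 0.564% and 0.384 to 0.579% in Con muscle of the same weeks. In these libraries the mitochondrially encoded transcripts took a median of 40.7% (6 weeks) and 36.8% (8 weeks) of TPM in CAC muscle, against 47.9% and 48.8% in Con muscle. The median of all 11107 genes was higher in CAC than in Con muscle, by 0.38 log2 at 6 weeks and 0.46 at 8 weeks. Each change is therefore given as deposited and after rescaling by median-of-ratios size factors, which puts the median of all genes near 0 (0.00 and 0.01). Which of the scales is nearer to RNA per fibre or per muscle was not tested. In bulk muscle, fewer cells of a type and less RNA per cell cannot be told apart. Markers of muscle fibres (8 genes) summed to 42730 to 86490 TPM in CAC muscle at 6 and 8 weeks and to 52360 to 88630 TPM in Con muscle. As deposited, 2 of these 8 were called higher and 1 lower at 6 weeks, and 3 higher and 2 lower at 8 weeks. Rescaled, 1 was called higher and 3 lower at each week, with median changes of -0.31 and -0.27. Markers of macrophages and leukocytes (5 genes) summed to 9.98 to 25.2 TPM in CAC muscle at 8 weeks, against 5.22 to 11.5 TPM in Con muscle, and 3 of the 3 tested were called higher as deposited and 1 rescaled. Fibroblast markers (4 genes, 2 called higher as deposited, 1 higher and 1 lower rescaled) summed to 230 to 606 TPM, against 167 to 304 TPM in Con muscle, and endothelial markers (4 genes, 3 called higher and 1 lower as deposited, 2 and 1 rescaled) to 138 to 184 TPM, against 81.5 to 117 TPM. At 6 weeks the same lists summed to 9.39 to 14.5, 303 to 422 and 114 to 159 TPM in CAC muscle, against 3.78 to 7.65, 163 to 204 and 99.7 to 114 TPM in Con muscle. Adipocyte markers (3 genes) summed to 10.5 to 48.6 TPM in CAC muscle at 6 weeks, against 1.38 to 5.66 TPM in Con muscle, and the 2 tested were called higher on both scales, with a median change of 1.54 (rescaled 1.21). At 8 weeks they summed to 5.55 to 19.2 TPM, against 1.41 to 8.62 TPM, with 1 called higher as deposited and 0 rescaled and a median change of 0.92 (rescaled 0.58). Melanocyte markers (4 genes) summed to no more than 0.295 TPM in CAC muscle at 6 and 8 weeks and 0.138 TPM in Con muscle. The part of other cell types in the results below was not tested. Along the first principal component of all genes, which held 49.7% of the variance, the 3 libraries farthest from the median were all CAC. They were replicate 1 at 6 weeks (76.0) and replicates 1 and 6 at 8 weeks (84.9 and 81.7). CAC replicate 2 at 8 weeks came next (58.4). The number 3 was a setting and not the result of a test. Below, these 3 are called the libraries that stood apart.

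Promoters are shown for the pair of eEF1A genes, whose balance was tested within each library. Those of 3 examples that all hold the letters marked below are added, from the 14 factors called higher rescaled at 8 weeks. Each is the 250 bases before the RefSeq start of the gene on GRCm38.p6, written 5′ to 3′ on the strand of the gene, and capitals mark CACGTG, the E-box bound by MYC and related factors. The regions lie at chr9:78481725-78481974 (minus strand) for Eef1a1, chr2:181157016-181157265 (minus) for Eef1a2, chr10:81176381-81176630 (plus) for Eef2, chr11:69672424-69672673 (minus) for Eif4a1 and chr7:108934165-108934414 (plus) for Eif3f.
Eef1a1: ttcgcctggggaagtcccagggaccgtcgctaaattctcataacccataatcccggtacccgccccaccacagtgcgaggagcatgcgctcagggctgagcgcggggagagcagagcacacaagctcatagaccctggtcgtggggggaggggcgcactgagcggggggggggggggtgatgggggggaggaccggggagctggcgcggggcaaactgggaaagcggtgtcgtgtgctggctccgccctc
Eef1a2: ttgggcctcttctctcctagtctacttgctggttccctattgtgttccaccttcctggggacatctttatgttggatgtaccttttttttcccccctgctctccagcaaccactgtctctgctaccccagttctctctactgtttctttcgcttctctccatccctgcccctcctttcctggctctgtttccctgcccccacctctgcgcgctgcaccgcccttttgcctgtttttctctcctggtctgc
Eef2: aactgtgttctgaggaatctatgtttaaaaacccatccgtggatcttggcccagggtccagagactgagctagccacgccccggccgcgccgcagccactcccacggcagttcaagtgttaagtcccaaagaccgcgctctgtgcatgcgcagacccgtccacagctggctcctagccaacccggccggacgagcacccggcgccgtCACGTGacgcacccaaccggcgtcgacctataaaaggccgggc
Eif4a1: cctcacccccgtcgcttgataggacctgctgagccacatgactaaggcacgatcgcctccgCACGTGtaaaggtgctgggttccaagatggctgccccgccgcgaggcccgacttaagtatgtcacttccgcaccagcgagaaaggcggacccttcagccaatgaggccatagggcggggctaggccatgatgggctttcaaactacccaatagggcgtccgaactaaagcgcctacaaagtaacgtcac
Eif3f: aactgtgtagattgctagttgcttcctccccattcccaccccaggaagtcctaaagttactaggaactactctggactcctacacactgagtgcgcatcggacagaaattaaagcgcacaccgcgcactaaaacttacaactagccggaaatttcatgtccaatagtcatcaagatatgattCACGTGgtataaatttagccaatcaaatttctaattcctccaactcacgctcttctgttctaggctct
The E-box started 43 bases before the gene start in Eef2, 189 in Eif4a1 and 68 in Eif3f, and these letters were not in either eEF1A window. The Eef1a1 window was 68.0% G and C and the Eef1a2 window 54.0%. Over promoters that run to 50 bases past the start, CACGTG, which reads alike on both strands, was found in 11 of the 47 tested factors with a promoter in the table (23.4%), in 12.2% of 8442 tested genes and in 8.09% of all 27025 promoters. Those 11 genes were Eef2, Eef2k, Eif1b, Eif3a, Eif3f, Eif3k, Eif4a1, Eif4e, Eif4g1, Eif4h and Eif5a. On either strand, GGAAGT, a core bound by ETS factors, was in 24 of the 47 (51.1%), against 31.7% of tested genes and 26.5% of all promoters, and TGATGNAA, bound by ATF4 with C/EBP partners, was in 2 of 47 (4.26%), against 2.49% and 4.51%. Of the factors called higher rescaled at 8 weeks, Eef2, Eif3f, Eif3k and Eif4a1 had CACGTG. Eef1a1, Eef1b2, Eif1, Eif3g and Eif2ak4, also called higher rescaled at that week, did not have it. The others so called, Eif1a, Eif3e, Eif3h, Eif3i and Eif3j2, had no promoter in the table. Eef2k, Eif1b, Eif3a, Eif4e, Eif4g1, Eif4h and Eif5a had CACGTG and were not called higher rescaled at that week. These are letter matches only, and a link between them and the changes was not tested.

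No factor was called between CAC and Con muscle at 2 weeks, and nearly all were higher as deposited at 6 and 8 weeks. At 2 weeks limma called 0 of the 58 factors in either direction (adjusted p under 0.05), where 0.054% of all genes were called higher and 0% lower, and 5 factors were higher at an unadjusted p under 0.05. At 4 weeks 1 factor, Eif1a, was called higher, with 0.891% of all genes called higher and 0.045% lower. At 6 weeks 53 of 58 were called higher (91.4%) and 0 lower, with 60.7% of all genes called higher and 3.26% lower. At 8 weeks 54 were called higher (93.1%) and 0 lower, against 69.4% and 5.09% of all genes.

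Relative to the median gene the factors moved in both directions. After rescaling, 14 were higher and 2 lower at 6 weeks (24.1% and 3.45% of 58), with 15.5% of all genes called higher and 19.2% lower on that scale. At 8 weeks 14 were higher and 6 lower (24.1% and 10.3%), with 23.8% and 24.9% of all genes. The share called higher at 8 weeks was thus near that of all genes. The median change of the 58 factors was 0.55 at 6 weeks and 0.61 at 8 weeks as deposited, and 0.13 and 0.10 rescaled. The comparisons at 6 and 8 weeks share no library, and 10 factors were higher at both after rescaling (71.4% of the 14 at each week): Eef1a1, Eef1b2, Eef2, Eif1, Eif1a, Eif3e, Eif3g, Eif3h, Eif3j2 and Eif4a1. The factor lower at both was Eef1a2. The same overlap was not counted over all genes, so the share of 71.4% has no background to be read against. Without the 3 CAC libraries that stood apart, chosen after seeing the data, rescaling left 10 higher and 3 lower at 6 weeks and 11 higher and 8 lower at 8 weeks. The shares of all genes were then 13% and 16.6% higher and 17.2% and 20.4% lower. Without CAC replicate 3 at 8 weeks, 23 were higher and 6 lower, with 26.6% and 27.4% of all genes. That library was chosen after seeing the data and had the lowest summed factor share in its group. A count of the same factors without it is therefore not an independent check.

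**Figure D1:**
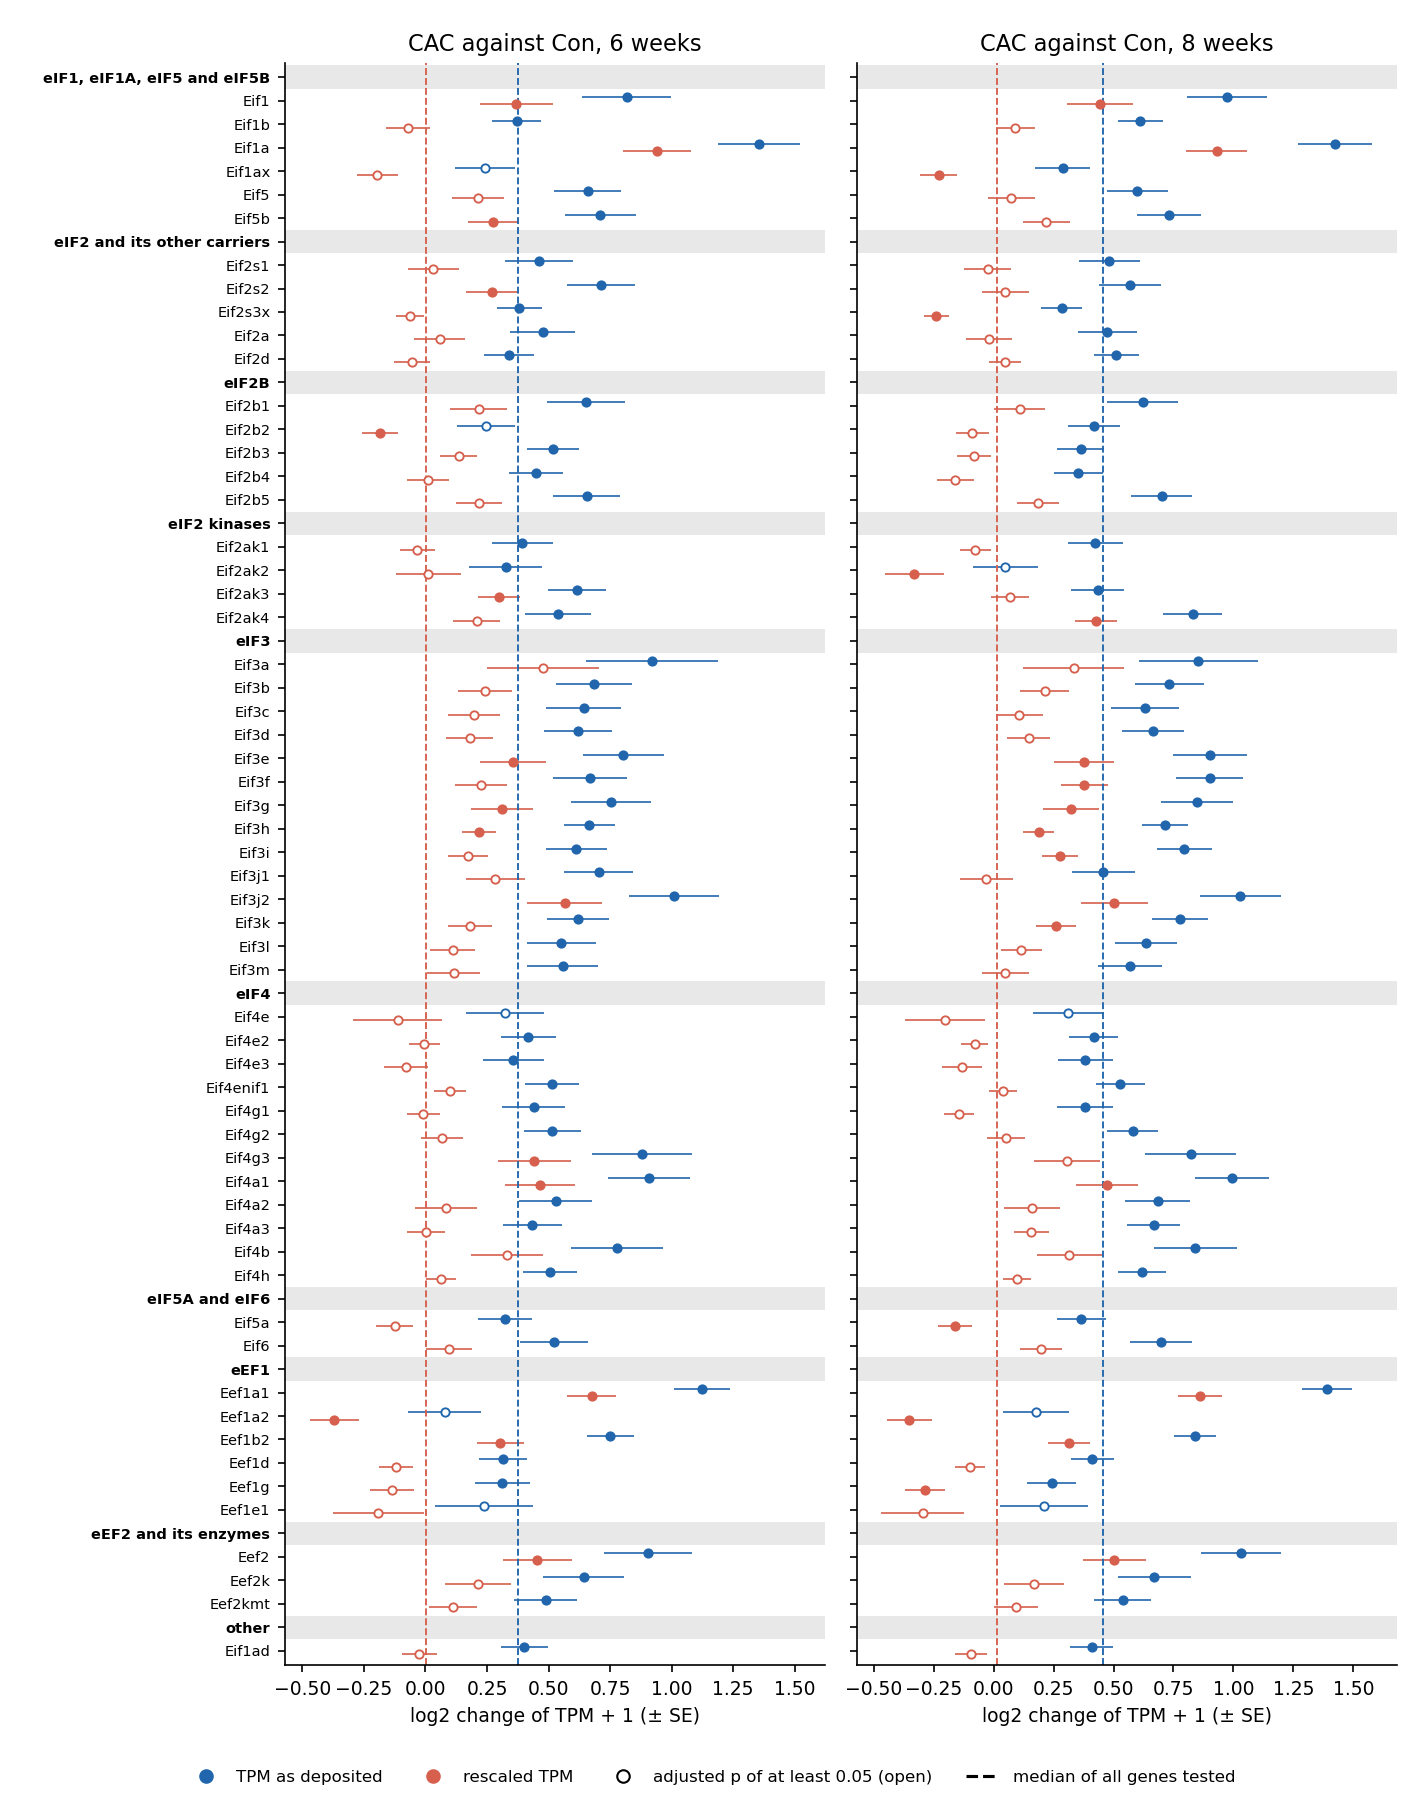
Log2 change of each tested factor in CAC against Con muscle at 6 and 8 weeks, grouped by role, with its SE; blue is as deposited and red rescaled, filled points passed an adjusted p of 0.05, and dashed lines give the median of all genes tested (0.38 and 0.46 as deposited). The blue points lie right of 0, and the red points spread to both sides, with Eif1a (0.94 and 0.93) and Eef1a1 (0.68 and 0.86) farthest to the right.

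Eef1a1 rose in CAC muscle on both scales, while its muscle isoform Eef1a2 did not rise on either. Both encode eEF1A, the GTPase that carries aminoacyl-tRNA to the ribosome. Eef1a1 (minus strand, chromosome 9, 78478449 to 78489151 in the GENCODE annotation of GRCm38) had 539, 397, 432, 587 and 436 TPM in CAC muscle at 6 weeks and 209, 214, 225, 219 and 215 TPM in Con muscle. At 8 weeks the lowest, median and highest of 7 CAC muscles were 389, 578 and 632 TPM, against 195, 241, 198, 183 and 217 TPM in Con muscle. Every CAC muscle of these weeks lay above every Con muscle. The log2 change was 1.12 at 6 weeks (SE 0.114, limma adjusted p = 3.72e-11) and 1.39 at 8 weeks (SE 0.105, adjusted p = 1.43e-15), a ratio of mean TPM of 2.21 and 2.64, and it was 0.68 (adjusted p = 8.74e-07) and 0.86 (adjusted p = 1.25e-10) rescaled. At 4 weeks it was 0.28, which did not pass (adjusted p = 0.252) except without CAC replicate 1 (0.40, adjusted p = 0.0431).

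Eef1a2 (minus strand, chromosome 2, 181147653 to 181157014), the most abundant of the 62 factors with a mean of 929 TPM over all libraries, had 1435, 1127, 893, 858 and 906 TPM in CAC muscle at 6 weeks and 962, 1025, 872, 953 and 1044 TPM in Con muscle. At 8 weeks the 7 CAC muscles had a lowest, median and highest value of 789, 956 and 1320 TPM, against 878, 1079, 870, 932 and 593 TPM in Con muscle. The groups overlapped at both weeks. The change as deposited was 0.08 at 6 weeks (adjusted p = 0.652) and 0.18 at 8 weeks (adjusted p = 0.238), and rescaled it was -0.37 (adjusted p = 0.00361) and -0.35 (adjusted p = 0.00166). The 3 highest CAC values, 1435, 1320 and 1204 TPM, came from the libraries that stood apart. Without replicate 1 at 6 weeks the change as deposited was -0.043.

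**Figure D2:**
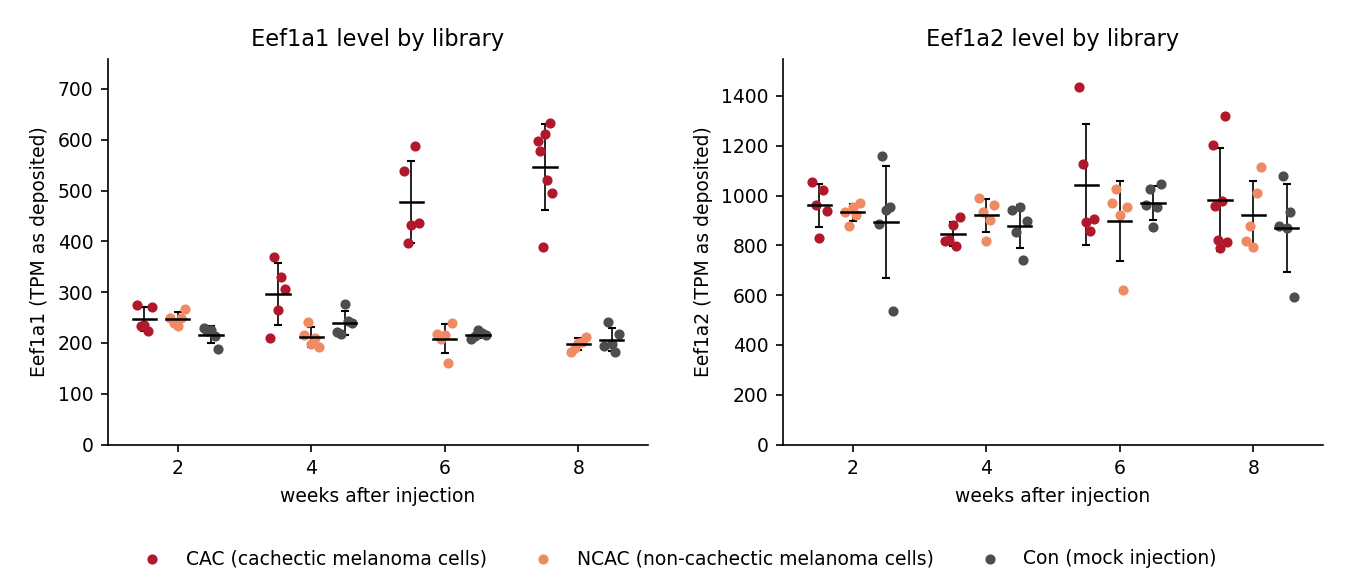
TPM of Eef1a1 and Eef1a2 in every library by week, for CAC, NCAC and Con muscle from left to right, with the group mean (black bar) and SD. Eef1a1 averages 478 and 546 TPM in CAC muscle at 6 and 8 weeks and 197 to 217 TPM in the NCAC and Con groups of those weeks, while Eef1a2 groups overlap throughout.

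The balance between the isoforms is read within a library and does not depend on scaling. The log2 ratio of Eef1a1 to Eef1a2 averaged -1.96 ± 0.167, -1.54 ± 0.332, -1.11 ± 0.378 and -0.84 ± 0.256 in CAC muscle at 2, 4, 6 and 8 weeks (SD, n = 5, 5, 5 and 7). In NCAC muscle the means were -1.92, -2.13, -2.10 and -2.22, and in Con muscle -2.01, -1.87, -2.16 and -2.06 (n = 5 each). As a share of the pair, Eef1a1 made up 20.6, 25.8, 31.8 and 35.9% of eEF1A mRNA in CAC muscle at the 4 weeks, and 18.3 to 21.6% over the Con groups. Eef1a2 stayed the larger of the pair in every library.

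CAC and Con muscle differed in the log2 ratio by 1.05 at 6 weeks (2.07 times, exact two-sided permutation test p = 0.00794, adjusted over 12 comparisons p = 0.0238) and by 1.22 at 8 weeks (2.32 times, exact p = 0.00253, adjusted p = 0.0152). No CAC muscle of these weeks overlapped the Con range, with CAC values from -1.51 to -0.55 at 6 weeks and -1.08 to -0.37 at 8 weeks, against -2.28 to -1.95 and -2.35 to -1.45 in Con muscle. These p-values are the smallest that 5 against 5 and 7 against 5 muscles allow. At 2 weeks the difference was 0.05 (exact p = 0.754, adjusted p = 0.754) and at 4 weeks 0.33 (exact p = 0.0952, adjusted p = 0.163), with 3 of 5 CAC muscles above the highest Con muscle. Against NCAC muscle the ratio in CAC muscle was higher by 0.99 at 6 weeks (exact p = 0.00794, adjusted p = 0.0238) and 1.38 at 8 weeks (exact p = 0.00253, adjusted p = 0.0152). At 4 weeks it was higher by 0.58 (exact p = 0.0159, adjusted p = 0.0381), a call lost in 8 of the 10 comparisons that left out 1 muscle (adjusted p up to 0.0762). Without the 3 libraries that stood apart, chosen after seeing the data, CAC and Con muscle differed by 1.12 and 1.30 at 6 and 8 weeks. NCAC and Con muscle differed by 0.09, -0.25, 0.06 and -0.16 at 2, 4, 6 and 8 weeks, with an adjusted p of 0.0952 at 4 weeks and larger values at the others (exact test).

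**Figure D3:**
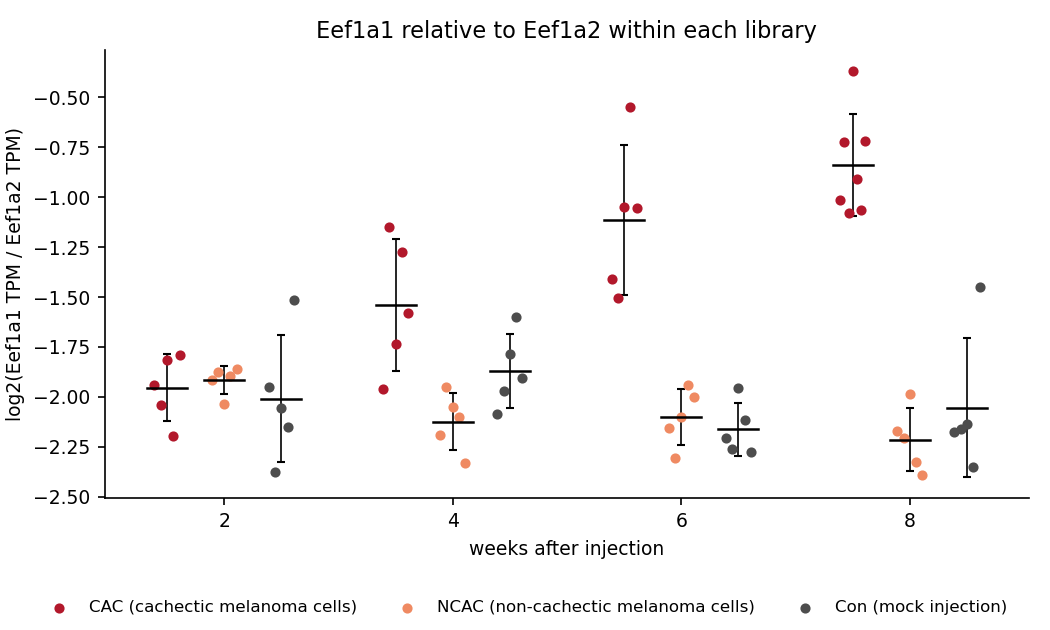
Log2 ratio of Eef1a1 to Eef1a2 in every library by week, for CAC, NCAC and Con muscle from left to right, with the group mean and SD. All groups lie near -2 at 2 weeks, and the CAC means are -1.54, -1.11 and -0.84 at 4, 6 and 8 weeks.

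The remaining eEF1 genes did not move as a block. Eef1b2, Eef1d and Eef1g encode subunits of eEF1B, which reloads eEF1A with GTP. Eef1b2 had 186, 145, 141, 151 and 120 TPM in CAC muscle at 6 weeks and 97.9, 87.8, 81.7, 82.4 and 87.4 TPM in Con muscle, with no overlap. It was higher on both scales at 6 weeks (0.75, adjusted p = 1.74e-08; rescaled 0.30, adjusted p = 0.0113) and at 8 weeks (0.84, adjusted p = 3.63e-11; rescaled 0.32, adjusted p = 0.00296). Eef1g had 302, 312 and 362 TPM as lowest, median and highest CAC value at 8 weeks, against 277, 337, 267, 292 and 206 TPM in Con muscle. It was higher as deposited (0.24, adjusted p = 0.0319) and lower rescaled (-0.29, adjusted p = 0.004), and the call as deposited was lost without CAC replicate 2 or 6 or Con replicate 3 or 5 (0.14, adjusted p = 0.224, without Con replicate 5). Eef1d was higher as deposited at both weeks (0.32 and 0.41) with rescaled values of -0.12 and -0.10. At 6 weeks the calls as deposited of Eef1d and Eef1g were lost without CAC replicate 1 (adjusted p = 0.0535 and 0.0601). Eef1e1, which carries an eEF1 name but belongs to the multi-synthetase complex and was named after its values were seen, did not pass at either week (0.24 and 0.21). Over the 6 eEF1 genes, 4 were higher as deposited at each week, and 2 were higher with 1 (6 weeks) or 2 (8 weeks) lower after rescaling. Of all genes, 60.7% and 69.4% were higher as deposited, and rescaled 15.5% and 23.8% were higher and 19.2% and 24.9% lower.

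Eef2, which encodes the GTPase of ribosomal translocation and was second in level with a mean of 819 TPM, was higher on both scales. It had 1561, 1452, 1091, 1277 and 1260 TPM in CAC muscle at 6 weeks, against 704, 760, 580, 691 and 807 TPM in Con muscle. At 8 weeks the lowest, median and highest CAC values were 574, 1186 and 1768 TPM, against 598, 754, 556, 661 and 409 TPM in Con muscle. All 5 CAC muscles at 6 weeks and 6 of 7 at 8 weeks lay above every Con muscle as deposited, and CAC replicate 3 at 8 weeks lay among the Con muscles. Rescaled, CAC replicate 3 at 6 weeks (874 TPM) also lay below the highest Con value of that week (900 TPM). On that scale CAC replicate 3 at 8 weeks lay below every Con muscle of its week (453 TPM, against 531 to 718 TPM). The log2 change was 0.90 at 6 weeks (SE 0.179, adjusted p = 4.73e-05; rescaled 0.45, adjusted p = 0.0105) and 1.03 at 8 weeks (SE 0.166, adjusted p = 5.55e-07; rescaled 0.50, adjusted p = 0.00139). Eef2k, whose kinase phosphorylates and inhibits eEF2, was higher as deposited (0.64 and 0.67, adjusted p = 8.03e-04 and 1.12e-04), but did not pass rescaled (0.21 and 0.17). Eef2kmt, which methylates eEF2, followed the same course (0.49 and 0.54 as deposited, 0.11 and 0.09 rescaled).

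Among the factors of start codon recognition and subunit joining, Eif1a changed most. Its product and that of Eif1ax are forms of eIF1A, which holds the scanning ribosome open together with eIF1. In CAC muscle at 4 weeks Eif1a had 10.2, 16.3, 9.40, 14.0 and 9.98 TPM, against 8.15, 7.16, 6.89, 6.69 and 6.50 TPM in Con muscle. At 6 weeks it had 32.1, 18.5, 15.8, 16.8 and 15.1 TPM in CAC muscle and 7.34, 7.22, 6.95, 6.85 and 5.60 TPM in Con muscle. At 8 weeks the lowest, median and highest CAC values were 11.0, 20.2 and 33.5 TPM, against 7.43, 8.09, 6.87, 6.95 and 6.49 TPM in Con muscle. No CAC muscle overlapped Con muscle at these 3 weeks. The log2 change was 0.66 at 4 weeks (SE 0.166, adjusted p = 0.0292; rescaled 0.54, adjusted p = 0.0283), 1.36 at 6 weeks (SE 0.166, adjusted p = 6.54e-09; rescaled 0.94, adjusted p = 9.28e-07) and 1.42 at 8 weeks (SE 0.154, adjusted p = 6.46e-11; rescaled 0.93, adjusted p = 5.68e-08). The call at 4 weeks was lost without CAC replicate 2 or 4 or Con replicate 2, 3, 4 or 5 (adjusted p up to 0.255).

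Eif1ax, the X-linked form of eIF1A, was lower than the median gene at 8 weeks (rescaled -0.23, adjusted p = 0.0124) though higher as deposited (0.29, adjusted p = 0.0211), a call lost without CAC replicate 5 or Con replicate 5 (adjusted p = 0.052 and 0.0919). The log2 ratio of Eif1a to Eif1ax averaged -2.19, -1.76, -1.31 and -1.19 in CAC muscle at 2, 4, 6 and 8 weeks and -2.44, -2.45, -2.54 and -2.44 in Con muscle. This pair was chosen after its values were seen, and no test is given. The products are near-identical, so how reads were divided between these genes in the deposited values is uncertain. Eif1, which works beside eIF1A in choosing the start codon, had 1321, 772, 701, 692 and 632 TPM in CAC muscle at 6 weeks and 525, 466, 413, 409 and 443 TPM in Con muscle, without overlap. Its change was 0.82 at 6 weeks (adjusted p = 1.79e-04; rescaled 0.37, adjusted p = 0.0471) and 0.97 at 8 weeks (adjusted p = 1.84e-06; rescaled 0.44, adjusted p = 0.00672), where CAC replicate 3, at 400 TPM, lay inside the Con range of 288 to 446 TPM. Rescaled, CAC replicate 3 at 8 weeks lay below every Con muscle of its week for Eif1 (315 TPM, against 374 to 459 TPM). Eif5b, which joins the ribosomal subunits, was higher as deposited at both weeks (0.71 and 0.73) and passed rescaled at 6 weeks (0.28, adjusted p = 0.0357) but not at 8 weeks (0.22, adjusted p = 0.0553). Eif5, the GTPase activator of eIF2, was higher as deposited (0.66 and 0.60) and did not pass rescaled.

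**Figure D4:**
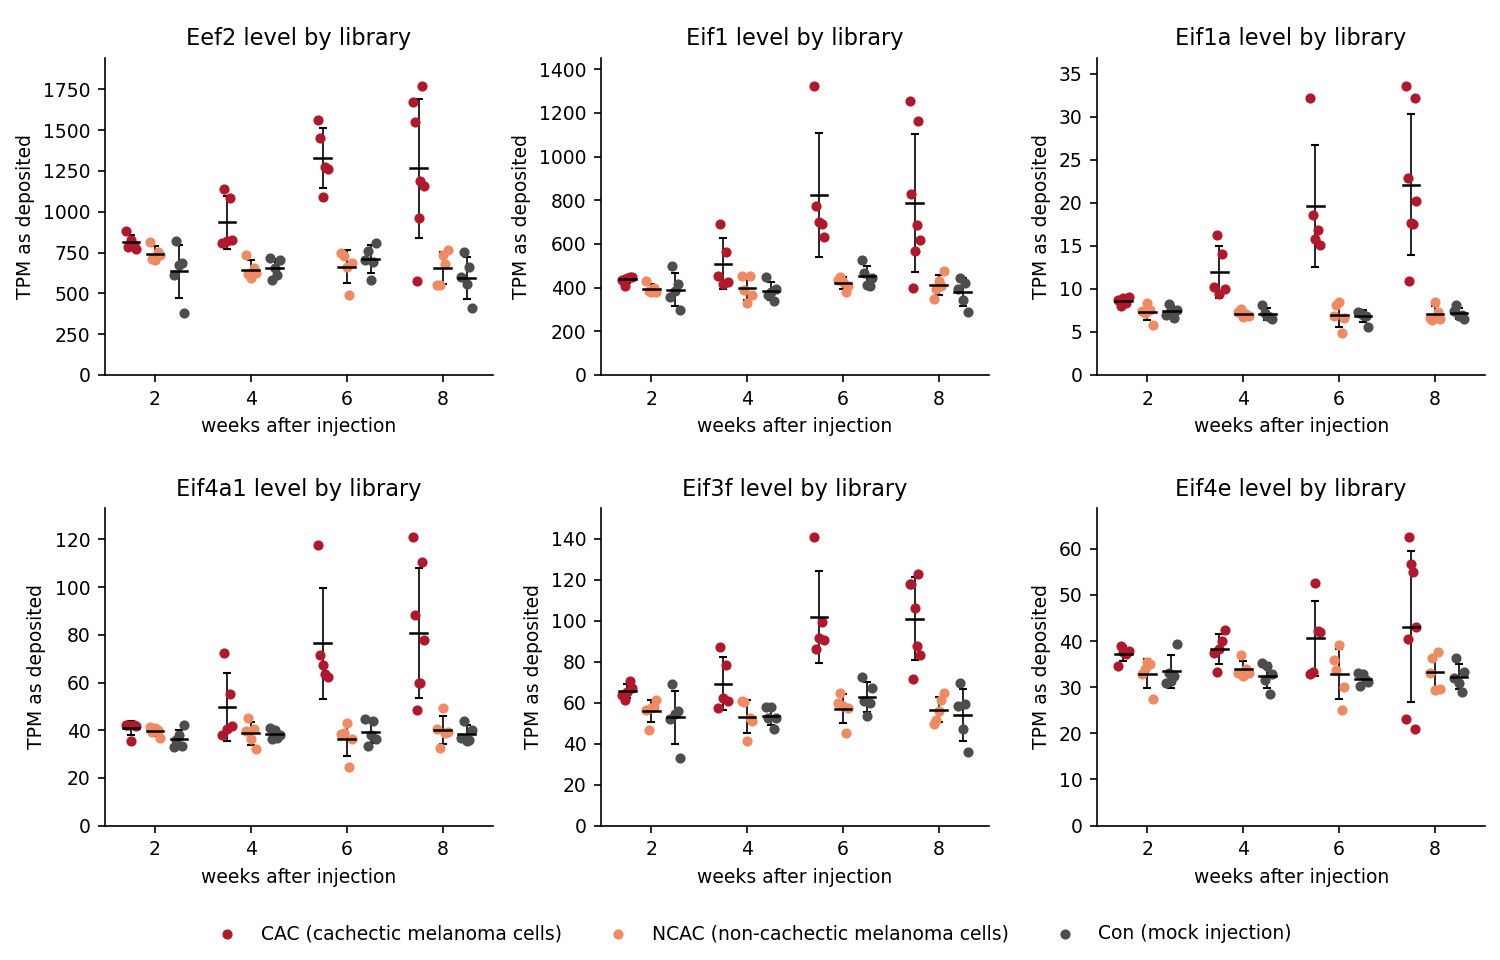
TPM by library of factors from several roles for CAC, NCAC and Con muscle at each week, with group mean and SD. Eif1a, Eef2, Eif1, Eif4a1 and Eif3f lie higher in CAC muscle at 6 and 8 weeks, and Eif4e spreads widely within CAC muscle at 8 weeks, between 21.0 and 62.5 TPM.

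The eIF2 complex, which carries the initiator tRNA, and its exchange factor eIF2B were higher as deposited but stayed near the median gene. All 5 tested eIF2 and alternative carrier genes were called higher as deposited at both weeks, with medians of 0.46 and 0.48. On that scale 60.7% and 69.4% of all genes were called higher at 6 and 8 weeks. Rescaled, Eif2s2 (the beta subunit) was higher at 6 weeks (0.27, adjusted p = 0.0412) and Eif2s3x (the X-linked gamma subunit) lower at 8 weeks (-0.24, adjusted p = 1.67e-04). Eif2s1, which encodes the alpha subunit that the stress kinases phosphorylate, had 40.7, 22.6, 21.0, 20.8 and 19.8 TPM in CAC muscle at 6 weeks and 17.0 to 17.4 TPM in Con muscle. Its change of 0.46 (adjusted p = 0.00373) was 0.03 rescaled, and its call as deposited was lost without CAC replicate 1, the library with 40.7 TPM (adjusted p = 0.0609). Of the 5 eIF2B genes, 4 at 6 weeks and 5 at 8 weeks were higher as deposited, to be read against the same shares of all genes. Eif2b5, the catalytic subunit, changed by 0.66 and 0.70 (rescaled 0.22 and 0.18, not passing), and Eif2b2 was lower rescaled at 6 weeks (-0.19, adjusted p = 0.0442) and not called as deposited (0.25, adjusted p = 0.0626), though it was called higher without Con replicate 1 or 5 (adjusted p = 0.0394 and 0.0479).

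Of the 4 eIF2 alpha kinases, each tied to a different stress, all 4 were called higher as deposited at 6 weeks and 3 at 8 weeks, and rescaled 1 was higher at 6 weeks and 1 higher and 1 lower at 8 weeks. The shares of all genes called higher were 60.7% and 69.4% as deposited and 15.5% and 23.8% rescaled. Rescaled, 19.2% and 24.9% were lower. Eif2ak4, the GCN2 kinase that senses uncharged tRNA, had 2.98, 3.86 and 7.22 TPM as lowest, median and highest CAC value at 8 weeks, against 2.33, 2.14, 2.04, 2.12 and 1.51 TPM in Con muscle, with no overlap as deposited. Rescaled, the Eif2ak4 groups overlapped, with a lowest CAC value of 2.35 TPM and a highest Con value of 2.52 TPM. Its change was 0.83 at 8 weeks (SE 0.123, adjusted p = 1.12e-07; rescaled 0.43, adjusted p = 7.58e-05), and 0.54 at 6 weeks (adjusted p = 6.09e-04; rescaled 0.21, adjusted p = 0.0797). Eif2ak3, the PERK kinase of the endoplasmic reticulum, was higher on both scales at 6 weeks (0.62, adjusted p = 3.34e-05; rescaled 0.30, adjusted p = 0.00623) and as deposited alone at 8 weeks (0.43, adjusted p = 4.93e-04; rescaled 0.07). Whether these kinases differ between the weeks was tested directly, and neither passed. Eif2ak2, the kinase PKR that is induced by interferon, was not called as deposited at 8 weeks (0.05, adjusted p = 0.757) and lower rescaled (-0.33, adjusted p = 0.0219). At 6 weeks it was called higher as deposited (0.33, adjusted p = 0.0489; rescaled 0.01), a call lost in 7 of the 10 fits that left out 1 library, namely CAC replicate 3, 4 or 5 or Con replicate 1, 3, 4 or 5 (adjusted p up to 0.105). Eif2ak1, the heme-regulated kinase, was higher as deposited (0.39 and 0.42) with rescaled values of -0.03 and -0.08. Eif2ak2, Eif2ak3 and Eif2ak4 were among the least abundant tested factors, and a log2 scale with 1 added understates changes at 2 to 7 TPM.

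The eIF3 complex, the large scaffold on the small subunit, was higher as deposited in all 14 tested genes at both weeks, with medians of 0.67 and 0.76, where 60.7% and 69.4% of all genes were called higher. Rescaled, 4 of 14 were higher at 6 weeks and 7 at 8 weeks, and 0 were lower at either (limma; of all 58 factors 3 and 8 were lower at an unadjusted p under 0.05). The rescaled share of all genes called higher was 15.5% at 6 weeks and 23.8% at 8 weeks. Eif3e, Eif3g, Eif3h and Eif3j2 were called at both weeks, joined at 8 weeks by Eif3f, Eif3i and Eif3k. Eif3f, whose protein is a target of the atrophy ligase MAFbx in mouse muscle cells, had 141, 86.1, 91.5, 99.5 and 90.8 TPM in CAC muscle at 6 weeks, against 72.7, 60.8, 53.7, 60.1 and 67.4 TPM in Con muscle. At 8 weeks its lowest, median and highest CAC values were 71.5, 106 and 123 TPM, against 58.2, 69.5, 47.1, 59.2 and 35.9 TPM in Con muscle. Neither week showed overlap as deposited. Rescaled, the groups overlapped at both weeks. The lowest CAC values were 72.9 and 56.5 TPM, and the highest Con values 75.1 and 64.2 TPM. The change was 0.67 at 6 weeks (adjusted p = 2.5e-04; rescaled 0.22, adjusted p = 0.0923) and 0.90 at 8 weeks (adjusted p = 3.17e-07; rescaled 0.38, adjusted p = 0.00131). Eif3h was steadier between libraries, at 216 to 314 TPM in CAC muscle at 6 weeks, against 136 to 181 TPM in Con muscle, and changed by 0.66 and 0.71 (rescaled 0.22 and 0.19, adjusted p = 0.0126 and 0.0138).

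Eif3j2, one of a near-identical pair of genes for the loosely bound j subunit, was the most changed eIF3 gene (1.01 and 1.03; rescaled 0.57 and 0.50, adjusted p = 0.00323 and 0.00273), and reads shared with Eif3j1 make its level uncertain. Rescaled, CAC replicate 3 at 8 weeks lay below every Con muscle of its week for Eif3j2 (81.6 TPM, against 91.7 to 120 TPM). Eif3a, the largest core subunit, had 170, 89.4, 61.5, 68.0 and 62.7 TPM in CAC muscle at 6 weeks and 38.4 to 48.2 TPM in Con muscle. In CAC muscle at 8 weeks, replicates 1 and 6 had 186 and 180 TPM and the other 5 had 39.7 to 76.2 TPM, against 38.9 to 49.8 TPM in Con muscle. The highest values were those of the 3 libraries that stood apart. Its change of 0.92 and 0.85 passed as deposited (adjusted p = 0.00289 and 0.00198) and not rescaled (0.48 and 0.33, adjusted p = 0.0955 and 0.186).

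The cap-binding eIF4 group was higher as deposited in 11 of 12 tested genes at both weeks, the exception being Eif4e, and few of its genes departed from the median gene. As deposited, 60.7% (6 weeks) and 69.4% (8 weeks) of all genes were called higher. Eif4a1, the RNA helicase of the cap complex, had 118, 71.7, 67.3, 63.7 and 62.2 TPM in CAC muscle at 6 weeks and 44.8, 33.5, 38.1, 43.9 and 36.4 TPM in Con muscle. At 8 weeks its lowest, median and highest CAC values were 48.4, 78.0 and 121 TPM, against 35.3 to 44.1 TPM in Con muscle. The groups did not overlap at either week as deposited. Rescaled, they overlapped at 8 weeks, where the lowest CAC value was 38.2 TPM and Con muscle had 38.9 to 51.8 TPM. The change was 0.91 (SE 0.167, adjusted p = 1.76e-05; rescaled 0.47, adjusted p = 0.00834) and 0.99 (SE 0.154, adjusted p = 3.05e-07; rescaled 0.47, adjusted p = 0.00239). Its paralog Eif4a2, the more abundant helicase here, changed by 0.53 and 0.68 (rescaled 0.08 and 0.16, not passing). The log2 ratio of Eif4a1 to Eif4a2, given as a description after its values were seen, averaged -1.64, -1.51, -1.15 and -1.26 in CAC muscle at 2, 4, 6 and 8 weeks and -1.73, -1.54, -1.54 and -1.58 in Con muscle.

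Eif4e, the cap-binding protein itself, had 32.8, 33.4, 52.6, 42.1 and 42.0 TPM in CAC muscle at 6 weeks and 30.3 to 33.2 TPM in Con muscle. At 8 weeks the 7 CAC muscles had 23.1, 40.5, 62.5, 56.7, 54.9, 21.0 and 43.1 TPM, against 29.0 to 36.2 TPM in Con muscle. Of these CAC muscles 5 lay above every Con muscle as deposited, while replicates 1 and 6, which stood apart on all genes, lay below every one. It was not called at either week (0.32, adjusted p = 0.0712; 0.31, adjusted p = 0.0533). Without CAC replicate 1 it was called higher at 8 weeks (0.44, adjusted p = 0.00425), likewise without replicate 6 (0.46, adjusted p = 0.00175) or Con replicate 2 (0.35, adjusted p = 0.0406), and at 6 weeks without CAC replicate 1 or 2 (0.39 each, adjusted p = 0.0457 and 0.0425). Rescaled it was -0.11 and -0.20. The scaffold gene Eif4g1 was higher as deposited (0.44 and 0.38) and at -0.01 and -0.14 rescaled, and Eif4g2, a related scaffold that does not bind eIF4E, changed by 0.52 and 0.58 (rescaled 0.07 and 0.05). Eif4g3, the third scaffold, was higher on both scales at 6 weeks (0.88; rescaled 0.44, adjusted p = 0.0179) and as deposited alone at 8 weeks (0.82; rescaled 0.31, adjusted p = 0.0605).

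Eif5a, whose hypusine-bearing product helps the ribosome past difficult peptide bonds, had 309, 232, 227, 214 and 230 TPM in CAC muscle at 6 weeks, against 226, 172, 171, 181 and 218 TPM in Con muscle. At 8 weeks it had 226, 240 and 252 TPM as lowest, median and highest CAC value, against 193, 225, 174, 205 and 142 TPM in Con muscle. The groups overlapped at 6 weeks and not at 8 weeks as deposited, and rescaled they overlapped at both. It was higher as deposited (0.32, adjusted p = 0.00985; 0.37, adjusted p = 0.00131) and lower rescaled at 8 weeks (-0.16, adjusted p = 0.0497). Without CAC replicate 1 the call at 6 weeks was lost (adjusted p = 0.0727). Eif6, which keeps the ribosomal subunits apart, changed by 0.52 and 0.70 (rescaled 0.09 and 0.20, not passing).

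Of the 4 factors below the filter, Eif5a2, the second eIF5A gene, averaged 1.21 ± 0.314 and 1.24 ± 0.195 TPM in CAC muscle at 6 and 8 weeks (SD, n = 5 and 7), 0.651 and 0.596 TPM in NCAC muscle, and 0.659 ± 0.131 and 0.488 ± 0.107 TPM in Con muscle. No CAC muscle of these weeks overlapped Con muscle as deposited, and no test was run on Eif5a2. Rescaled, the groups overlapped at both weeks. The lowest CAC values were 0.760 and 0.767 TPM, and the highest Con values 0.891 and 0.825 TPM. Eif4e1b, an oocyte form of eIF4E, reached 0.109 TPM and was listed at 0 in 43 libraries. Eif2c5, kept by its symbol although GENCODE annotates it as a long noncoding RNA (lincRNA), was listed at 0 in 61. The Y-linked Eif2s3y was listed at 0 in all 62 libraries, which come from females.

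Transcripts with a 5′ terminal oligopyrimidine tract (TOP mRNAs), whose translation is controlled through mTORC1, include 9 of the factors: Eef1a1, Eef1b2, Eef1d, Eef1g, Eef2, Eif3e, Eif3f, Eif3h and Eif4b. All 9 were higher as deposited at 6 and 8 weeks, where 60.7% and 69.4% of all genes were, with medians of 0.75 and 0.84. Rescaled, 5 were higher at 6 weeks (55.6%) and 0 lower, and 6 were higher (66.7%) and 1, Eef1g, lower at 8 weeks, with medians of 0.30 and 0.32. On that scale 15.5% of all genes were called higher and 19.2% lower at 6 weeks and the shares at 8 weeks were 23.8% (higher) and 24.9% (lower). Of the other 49 factors, 9 were higher and 2 lower at 6 weeks and 8 higher and 5 lower at 8 weeks on that scale, with medians of 0.11 and 0.07. These values are mRNA levels, and TOP control acts on translation, which was not measured.

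Set against NCAC muscle, CAC muscle gave a like picture, and both comparisons use the same CAC libraries. At 2 weeks 0 of 58 factors were called higher or lower (limma; 0 at an unadjusted p under 0.05), with 0.063% of all genes called higher and 0% lower. At 4 weeks 5 were called higher, with 4.68% of all genes higher and 0.585% lower: Eif1a (0.65, adjusted p = 0.0145), Eef1a1 (0.46, adjusted p = 0.0106), Eif3h (0.35, adjusted p = 0.0358), and Eif3j1 and Eif4b, both named after their values were seen (0.45 and 0.60, adjusted p = 0.0489 and 0.0464). The count of 5 as deposited ranged between 0 and 9 when single libraries were left out. Rescaled, Eif1a was higher at 4 weeks (0.47, adjusted p = 0.0263) and Eef1a2 lower (-0.31, adjusted p = 0.0442). At 6 weeks 54 were higher (93.1%), with 64.2% of all genes higher and 3.52% lower, and rescaled 17 were higher and 5 lower, with 19.4% and 22.6% of all genes. At 8 weeks 52 were higher (89.7%), with 67% of all genes higher and 5.04% lower, and rescaled 12 were higher and 7 lower, with 23.4% and 25.6% of all genes.

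Eef1a1 had 218, 208, 215, 161 and 238 TPM in NCAC muscle at 6 weeks and 182, 190, 201, 201 and 212 TPM at 8 weeks, all below every CAC muscle of the same week. CAC exceeded NCAC muscle by 1.19 at 6 weeks (SE 0.114, adjusted p = 4.93e-12; rescaled 0.69, adjusted p = 3.75e-07) and 1.45 at 8 weeks (SE 0.105, adjusted p = 2.11e-16; rescaled 0.94, adjusted p = 8.61e-12). Eif1a differed by 1.33 and 1.45 (rescaled 0.87 and 0.97), Eif4a1 by 1.04 and 0.94 (rescaled 0.54 and 0.44), Eef2 by 1.00 and 0.88 (rescaled 0.50 and 0.37) and Eif1 by 0.92 and 0.85 (rescaled 0.42 and 0.34), each called on both scales at both weeks. Eef1a2 was not called as deposited (0.21 and 0.08) and was lower rescaled (-0.29, adjusted p = 0.0173; -0.43, adjusted p = 1.52e-04).

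No factor was called between NCAC muscle, from mice with the melanoma that does not cause cachexia, and Con muscle. The count by limma was 0 of 58 factors at each of the 4 weeks, and 0 passed an unadjusted p under 0.05 as deposited. The share of all genes called was 0% higher and 0.162% lower at 2 weeks, 0% in both directions at 4 and 6 weeks, and 0.009% higher at 8 weeks. Con muscle at 8 weeks against 2 weeks also had 0 factors called (0 at an unadjusted p under 0.05 as deposited), with 0.018% of all genes higher and 0.252% lower.

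The time course was tested as the difference between weeks in the change of CAC minus Con muscle. From 2 to 4 weeks 0 factors were called (0 at an unadjusted p under 0.05 as deposited), with 0% of all genes called higher. From 4 to 6 weeks 2 factors were called, with 0.882% of all genes: Eef1a1, whose change was larger at 6 weeks by 0.84 (SE 0.161, adjusted p = 0.0075), and Eef1b2, by 0.53 (SE 0.136, adjusted p = 0.0406). Rescaled these were 0.52 (adjusted p = 0.23) and 0.22 (adjusted p = 0.577). The call of Eef1a1 held in each of the 20 fits without 1 library (adjusted p up to 0.0426), and that of Eef1b2 was lost in 13 of 20, with a range of 0.451 to 0.608. From 6 to 8 weeks 0 factors were called (0 at an unadjusted p under 0.05 as deposited), with 0% of all genes.

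Other genes of translation were taken from lists by function. Their counts read against the shares of all genes called, which as deposited were 60.7% (6 weeks) and 69.4% (8 weeks) higher and 3.26% and 5.09% lower, and rescaled 15.5% and 23.8% higher and 19.2% and 24.9% lower. Of 6 tested termination and recycling genes, 4 were higher as deposited at 6 weeks and 3 at 8 weeks, among them Etf1, the release factor that reads stop codons (0.78 and 0.92; rescaled 0.34 and 0.39). Rescaled, Etf1 was the 1 termination and recycling gene called higher at each week, with 0 lower at 6 weeks and 3 lower at 8 weeks. The rescaled medians of that list were -0.13 and -0.29. Of 5 poly(A)-binding genes, 4 were higher at each week, and 1 was higher and 2 lower rescaled. Of 9 enzymes that make diphthamide on eEF2 or hypusine on eIF5A, 7 were higher at 6 weeks and 8 at 8 weeks. Rescaled, 0 of these enzymes were higher and 1 lower at 6 weeks, and 2 were higher and 1 lower at 8 weeks. Of 22 cytosolic aminoacyl-tRNA synthetase genes and their scaffolds, 20 were higher and 1 lower at 6 weeks and 19 higher and 1 lower at 8 weeks, and rescaled 3 were higher and 3 lower (6 weeks) or 6 lower (8 weeks). The 9 tested mitochondrial factors were divided: 3 were higher and 2 lower at 6 weeks and 2 higher and 4 lower at 8 weeks, and rescaled 6 were lower at 6 weeks and 7 at 8 weeks. Tufm, the mitochondrial counterpart of eEF1A, changed by -0.32 at 6 weeks and -0.30 at 8 weeks (rescaled -0.77 and -0.82), and its exchange factor Tsfm by -0.29 and -0.32 (rescaled -0.68 and -0.78). Gfm1, a mitochondrial translocase, was not called as deposited at 6 weeks (-0.06, adjusted p = 0.614; rescaled -0.50) and was lower at 8 weeks (-0.27, adjusted p = 0.00822; rescaled -0.79). These genes were named after their values were seen.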

How the data were processed

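Per the labels' protocols, RNA was extracted with Trizol, made into TruSeq stranded mRNA libraries and sequenced on an Illumina NovaSeq. The values come from one table that the authors deposited, with TPM for all 62 libraries, in which every column has the same total, per the file headers and values. The genome build was mm10 per the submitters' processing notes, and the aligner, counter and annotation were not given in the sources used here. TPM keeps no depth, so the depth behind each value is unknown and no counting interval is given. No deposited column was left unmapped (0), and none of 131 pairs of libraries within groups was identical (0).

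Genes averaging at least 1 TPM (11107 of 23019 above 0) were tested with limma 3.58.1 in R 4.3.3 on log2(TPM + 1), with an intensity trend, in one fit of all 62 libraries (50 residual degrees of freedom) and 16 contrasts. Log2 changes are on this scale, which understates changes of low genes. Adjusted p is Benjamini-Hochberg over all genes tested, with a threshold of 0.05, and folds are ratios of mean TPM. Rescaling used median-of-ratios size factors over 13867 genes above 0 in every library (0.61 to 1.46). The log2 ratio of Eef1a1 to Eef1a2 was tested with an exact two-sided permutation test (scipy 1.17.1). The fitting script was tested on simulated data. P-values measure the spread between libraries, as the labels do not describe the animals further.

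The members and gene lists were chosen with earlier results of these data known. Named factors were a panel of 15 known factors, the 8 largest called changes each way per week, up to 3 called members per role, members called against the median gene, members below the filter, and up to 6 called in NCAC against Con, Con over time or a difference between weeks. The alternatives tried were rescaling, fitting only the weeks compared, a pseudocount of 0.1, omitting the filter, replicate number as a block, leaving out 3 libraries that stood apart, and leaving out each library. Protein sequences were not used here.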

Additional observations from a re-analysis of the deposited data

Results flagged for a closer look

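In the 84 groups of 4 to 10 libraries examined for a single far value, 7 held one whose gap to the next library was large for the range of its group, and chance alone flags about 1 in 20 groups. Eef1a2 in NCAC muscle at 6 weeks had a low library as deposited, replicate 4, at 621 TPM, where the others had 923 to 1026 TPM. That library had the lowest size factor of any library (0.61). Mitochondrially encoded transcripts took 61.1% of its TPM, the highest share of any library. Rescaled, its Eef1a2 value was 1018.5 TPM, inside the range of the others (905 to 1053 TPM), so the low value was not seen on that scale. CAC replicate 1 at 6 weeks, one of the libraries that stood apart on all genes, was far above its group for Eif1 (1321 TPM), Eif1a (32.1 TPM) and Eif4a1 (118 TPM). Eif1a also had a low library in Con muscle at 6 weeks (5.60 TPM), and Eif4a1 had one far value in CAC muscle at 2 weeks (35.7 TPM). In Con muscle at 8 weeks the log2 ratio of Eef1a1 to Eef1a2 had one high library, at -1.45, which still lay below every CAC muscle of that week.

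The change of CAC minus Con muscle differed between 6 and 4 weeks for 2 factors by a limma test of the difference itself. For Eef1a1 it was 0.84 (adjusted p = 0.0075) and for Eef1b2 0.53 (adjusted p = 0.0406), and neither passed after rescaling (0.52 and 0.22).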

How the results depend on the processing

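Scaling changed the most. Rescaling turned the 53 and 54 factors higher in CAC than Con muscle at 6 and 8 weeks into 14 higher (2 and 6 lower), the 54 and 52 against NCAC muscle into 17 (5 lower) and 12 (7 lower), the 5 against NCAC at 4 weeks into 1 (1 lower), and the 2 in the difference of 6 minus 4 weeks into 0. It reversed the sign for CAC against Con at 6 weeks of Eef1a2 (-0.37), Eef1d (-0.12), Eef1g (-0.14), Eif1ad (-0.025), Eif1ax (-0.20), Eif1b (-0.072), Eif2ak1 (-0.033), Eif2b2 (-0.19), Eif2d (-0.055), Eif2s3x (-0.063), Eif4e (-0.11), Eif4g1 (-0.0083) and Eif5a (-0.13). At 8 weeks it reversed Eef1a2 (-0.35), Eef1d (-0.10), Eef1g (-0.29), Eif1ad (-0.093), Eif1ax (-0.23), Eif2a (-0.019), Eif2ak1 (-0.076), Eif2ak2 (-0.33), Eif2b2 (-0.089), Eif2b3 (-0.083), Eif2s1 (-0.025), Eif2s3x (-0.24), Eif4e (-0.20), Eif4g1 (-0.14) and Eif5a (-0.16), and against NCAC muscle Eef1a2 (-0.29 at 6 weeks, -0.43 at 8 weeks). Signs were compared only for the named factors, and against NCAC muscle only for Eef1a1, Eef1a2, Eef2 and Eif1a. These lists of reversals therefore do not cover all factors. Rescaling without the 3 libraries that stood apart was chosen after seeing the data. Against Con it gave 10 higher with 3 lower (6 weeks) and 11 higher with 8 lower (8 weeks). Of all genes 13% and 16.6% were then higher and 17.2% and 20.4% lower. Against NCAC it gave 12 higher with 7 lower (6 weeks) and 6 higher with 8 lower (8 weeks). There 16.7% and 17.9% of all genes were higher and 21.1% and 22.2% lower. Rescaling without CAC replicate 3 at 8 weeks was also chosen after seeing the data. It gave 23 higher and 6 lower against Con, with 26.6% and 27.4% of all genes. Against NCAC that gave 19 higher and 6 lower, with 26.3% and 27.5% of all genes. The cause of these differences was not tested.

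Small counts moved under other settings. The 1 factor higher than in Con muscle at 4 weeks became 0 with no filter, 2 with only the weeks compared and 2 without the 3 libraries. The 5 against NCAC at 4 weeks became 3, 8 and 12 under the same settings. The 2 in the difference of 6 minus 4 weeks became 1 with a pseudocount of 0.1, 1 with only the weeks compared and 1 without the 3 libraries. Those 3 libraries also reversed Eef1a2 against Con at 6 weeks (-0.043) and against NCAC at 8 weeks (-0.075).

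Leaving out single libraries gave 0 to 2 factors higher than Con at 4 weeks, 0 to 9 higher than NCAC at 4 weeks and 1 to 4 in the difference of 6 minus 4 weeks. At 6 and 8 weeks the counts ran 48 to 54 and 52 to 55 against Con, and 46 to 55 and 51 to 54 against NCAC. The log2 ratio of Eef1a1 to Eef1a2 ran -0.0375 to 0.179 against Con at 2 weeks, and against NCAC -0.0816 to 0.0196 at 2 weeks and 0.486 to 0.689 at 4 weeks. Eef1a2 at 6 weeks ran -0.043 (without CAC replicate 1) to 0.14, and Eif2ak2 at 8 weeks -0.045 (without Con replicate 4; also below 0 without CAC replicate 3) to 0.12.

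Libraries with the same replicate number did not deviate together (median r -0.028 over 60 pairs, 0.012 over 260 pairs with different numbers), so the numbers do not pair them. With replicate number as a block, 1, 53 and 55 factors were higher than Con at 4, 6 and 8 weeks, 8, 54 and 53 higher than NCAC, and 2 in the difference of 6 minus 4 weeks. TPM keeps no depth, which limits what can be said of factors near the filter.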
